A study of Mus musculus with 32 samples.

Results

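Nphs1, Podxl, Wt1, Synpo, Ptpro and Cdkn1c are genes of the podocyte, the epithelial cell that wraps the capillaries of the kidney glomerulus. These 6 of the 54532 genes counted in mouse kidney were chosen by name, and all 6 passed the filter on low counts in every comparison. The data were RNA-seq counts from the kidneys of 32 wild-type C57BL/6 mice aged 6 to 8 weeks, with 4 mice in each of 8 groups set by sex and by day (Day 0, then Days 2, 3 and 5). In the study's account of this time course, mice received 1 injection of 20 mg/kg cisplatin, a platinum drug toxic to the renal tubule, and Day 0 mice were healthy. The sample labels give the treatment of the Day 0 males as NA but list cisplatin for the Day 0 females, so the Day 0 female label and that account disagree. Each library is the RNA of a different mouse, and no other agent or allele was named.

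Podocytes extend foot processes around the glomerular capillary, and the gap between neighbouring processes is bridged by the slit diaphragm, which is part of the filter that holds back plasma protein. Nephrin, the product of Nphs1, is the main adhesion protein of that slit. Podocalyxin (Podxl) is a negatively charged sialoprotein that keeps foot processes apart, Synpo encodes the actin-binding protein synaptopodin, and Ptpro encodes the receptor tyrosine phosphatase GLEPP1. Wt1 is a zinc-finger transcription factor needed to form and maintain podocytes, and Cdkn1c encodes p57, an inhibitor of cyclin-dependent kinases in cells that have left the cell cycle. Cisplatin is taken up mainly by tubule cells, so podocyte genes were read here in tissue in which other cells are the known site of damage.

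In GRCm38 coordinates, Nphs1 (ENSMUSG00000006649) lies at chr7:30458315-30487223 on the plus strand and Podxl (ENSMUSG00000025608) at chr6:31519488-31563981 on the minus strand. Wt1 (ENSMUSG00000016458) is at chr2:105126529-105173616 and Ptpro (ENSMUSG00000030223) at chr6:137252319-137463233, both on the plus strand. Cdkn1c (ENSMUSG00000037664) is at chr7:143458339-143461050 on the minus strand, and Synpo is ENSMUSG00000043079. Summed over exons, Cdkn1c was 2039 bases long and the other 5 genes were between 5488 and 9533 bases, which matters below. Nphs1 overlaps an antisense gene, Nphs1os, and a ribosomal pseudogene, but these had at most 3 and 95 counts in a library, against up to 1434 for Nphs1. An antisense gene over Cdkn1c, Gm44732, had at most 3 counts.

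The 250 bases before the start sites of Nphs1 and Ptpro are shown because these were the 2 of the 6 genes held by the RefSeq table used, and both were called higher in Day 3 males. In GRCm38.p6 they lie at chr7:30459808-30460057 for Nphs1 and chr6:137252049-137252298 for Ptpro, both on the plus strand. Capitals mark matches, on either strand, to GTGGGAG, a WT1-binding sequence, or to the E-box CANNTG, a site for bHLH factors such as TCF21.
Nphs1: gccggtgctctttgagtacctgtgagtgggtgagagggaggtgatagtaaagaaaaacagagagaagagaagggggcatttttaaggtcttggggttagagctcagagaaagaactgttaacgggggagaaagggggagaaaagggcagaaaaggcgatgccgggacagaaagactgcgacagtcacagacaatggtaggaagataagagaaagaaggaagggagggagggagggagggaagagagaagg
Ptpro: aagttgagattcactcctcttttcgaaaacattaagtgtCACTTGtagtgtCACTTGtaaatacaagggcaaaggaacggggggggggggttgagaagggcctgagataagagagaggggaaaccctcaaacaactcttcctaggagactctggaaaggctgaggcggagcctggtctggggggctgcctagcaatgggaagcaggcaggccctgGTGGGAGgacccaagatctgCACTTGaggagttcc
The Ptpro window held 1 GTGGGAG, at 35 to 29 bases before the start, and 3 E-boxes, at 211 to 206, 199 to 194 and 15 to 10 bases before it, with no overlap among them. Among 32851 promoter windows of this length, 8.25% held GTGGGAG and 66.2% held an E-box. The Nphs1 window held neither, and neither window held TAATTA (an LMX1B-type site, 4.84% of windows), TATAAA (12.4%) or GGGCGG (32.7%). GC content was 50.8% for Nphs1 and 53.6% for Ptpro. The gene model used for counting begins upstream of the RefSeq start of Nphs1, so this window lies inside that model.

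Several libraries stood apart. The tests of the 6 genes and the counts over 50 further podocyte genes that rest on them are given with and without them, while levels, correlations, likeness between genes and the shorter lists use all 32 libraries. Library totals ran from 16502107 to 35961325 counts, and the share on mitochondrial genes from 4.49% to 79.8%, with 4 Day 5 libraries above 75% (male mice 2, 3 and 4 and female mouse 2). The share of nuclear counts on genes of 4000 bases or more was 29.4% to 47.2% at Day 0, with 4 of the 8 libraries under 40% (male mouse 3 and female mice 1, 2 and 3), but 42.9% to 50.1% at Day 2 and Day 3, and 38.1% to 47% at Day 5, where male mouse 4 and female mouse 3 were under 40%. Male Day 5 mouse 1 had 4153 counts of the female transcript Xist beside 387 on Y-linked genes, against its label, while the other 3 males of that day had 59 to 260 Xist counts. Counts from the opposite sex's genes also appeared at Day 0 (up to 242 Xist in males, up to 221 Y-linked in females). Summed adrenal cortex markers passed 50 FPKM in 8 libraries: female Day 0 mouse 2, male Day 2 mouse 2, female Day 3 mice 3 and 4 and all Day 5 females. Summed proximal tubule markers of Day 5 males lay at 147 to 936 FPKM, against 1740 to 2290 at Day 0.

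Compared per length, as FPKM (counts scaled by exon length and library size), Podxl was the most abundant of the 6 in every group mean, from 21.2 in Day 0 males to 50.1 in Day 2 females. Cdkn1c followed, at 10.6 to 20.7, then Synpo at 4.61 to 10.5. Nphs1 stood at 1.52 to 5.68, Ptpro at 1.22 to 3.66 and Wt1 at 0.982 to 2.3, the lowest in every group but Day 5 males. Levels of single genes below are CPM (counts scaled by library size, with TMM factors for composition), which compare a gene with itself. Summed levels of markers are FPKM. Raw counts per library ran from 20 for Wt1 in a Day 0 female to 11519 for Podxl.

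**Figure D1:**
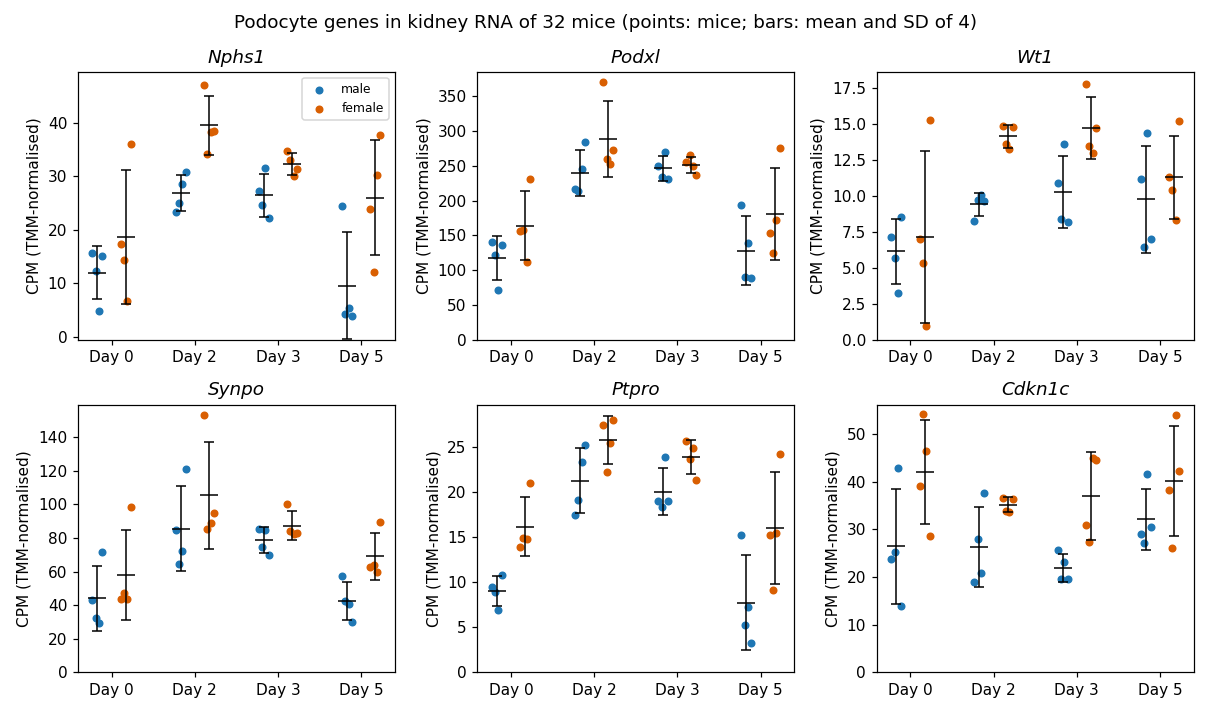
CPM of the 6 podocyte genes (y axis, 1 panel per gene) by day (x axis) in males (blue) and females (orange); points are mice, black bars the mean and SD of 4. Podxl of males lies at 70.7 to 141 at Day 0 and at 214 to 284 at Day 2, while Cdkn1c shows no such gap.

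Nphs1, Podxl and Ptpro were about 2-fold higher in male kidneys at Day 2 and Day 3 after cisplatin than at Day 0. Ptpro and Podxl passed the test at Day 2, and Nphs1, Podxl and Ptpro passed it at Day 3. Cdkn1c did not follow them, and at Day 5 none of the 6 differed from Day 0 by the test. In these whole-kidney libraries, more or fewer podocytes and more or less RNA per podocyte cannot be told apart. The 3 day comparisons of a sex share their 4 Day 0 mice.

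Ptpro stood at 9.48, 8.9, 6.87 and 10.8 CPM in the 4 Day 0 males, at 17.5, 19.1, 23.3 and 25.2 at Day 2, and at 19, 18.3, 23.9 and 19 at Day 3. Every Day 2 and Day 3 male was above every Day 0 male. The log2 fold change was 1.22 (SE 0.188, n = 4 and 4, adjusted p = 0.0288, edgeR quasi-likelihood test) at Day 2 and 1.13 (SE 0.163, adjusted p = 0.00603) at Day 3.

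Podxl was 141, 122, 70.7 and 136 CPM in Day 0 males, 216, 214, 245 and 284 at Day 2 and 250, 234, 270 and 231 at Day 3. The groups again did not overlap, and Day 0 mouse 3 was the lowest of all. Its log2 fold change was 1.02 (SE 0.217, edgeR adjusted p = 0.046) at Day 2 and 1.05 (SE 0.199, adjusted p = 0.0122) at Day 3.

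Nphs1 was 15.7, 12.3, 4.9 and 15.2 CPM in Day 0 males, 23.4, 25, 28.6 and 30.8 at Day 2 and 27.3, 24.7, 31.6 and 22.2 at Day 3. These groups did not overlap either. At Day 3 the log2 fold change was 1.13 (SE 0.313, edgeR adjusted p = 0.0343), and at Day 2 it was 1.16 (SE 0.309), which did not pass (adjusted p = 0.0648).

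Synpo and Wt1 had positive estimates that did not pass. Synpo, for the actin-binding protein, was 43, 32.3, 29.5 and 71.7 CPM in Day 0 males, 84.9, 64.3, 72.4 and 121 at Day 2 and 85.3, 74.7, 85 and 69.6 at Day 3, with Day 0 mouse 4 inside the range of the treated mice. The log2 differences were 0.94 (edgeR adjusted p = 0.095) and 0.81 (adjusted p = 0.057). Wt1 was 7.14, 5.65, 3.28 and 8.54 CPM at Day 0, 8.29, 9.7, 10.1 and 9.63 at Day 2 and 10.9, 8.39, 13.6 and 8.22 at Day 3. The groups overlapped, with log2 differences of 0.61 (adjusted p = 0.175) and 0.73 (adjusted p = 0.0995).

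Cdkn1c, the cell-cycle inhibitor, was 23.7, 25.2, 43 and 14 CPM in Day 0 males, 18.9, 27.9, 20.9 and 37.6 at Day 2 and 25.6, 19.6, 23.2 and 19.6 at Day 3. The Day 0 mice spanned all the Day 2 and Day 3 values. The log2 differences were -0.04 (95% interval -0.83 to 0.74) and -0.31 (-1.01 to 0.4).

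These counts stand against a background that differed greatly between days. At an adjusted p under 0.05, 3.16% of genes were called in males at Day 2 and 1.81% were called higher, where 2 of the 6 genes were called, both higher. At Day 3, 24.5% were called and 11.4% called higher, where 3 of the 6 were, all higher. None of the 6 passed the study's stricter rule, which also asks for an absolute log2 fold change over 1.5. Of all genes, 0.716% met that rule at Day 2 and 3.72% at Day 3. Groups without overlap were common: 23.9% of genes at Day 2 and 37.9% at Day 3 in males.

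Leaving out single mice changed the Day 2 calls. Ptpro kept an adjusted p under 0.05 in 3 of 8 leave-one-out fits and Podxl in 2 of 8, with log2 fold changes of 1.11 to 1.33 and 0.83 to 1.11. Both were kept without Day 0 mouse 3 or Day 0 mouse 4, Ptpro also without Day 2 mouse 1, and both were lost without any other mouse of these groups. The share of all genes called moved with this, from 14% without Day 0 mouse 3 or 4 and 0.382% without Day 2 mouse 1 to between 0.079% and 0.123% in the other 5 fits. At Day 3 Ptpro was kept in 8 of 8, Podxl in 7 of 8 (lost without Day 3 mouse 3) and Nphs1 in 3 of 8 (kept without Day 0 mouse 1, 3 or 4), with 1.04 to 1.24, 0.88 to 1.14 and 0.87 to 1.28. These fits called 4.18% to 38.6% of all genes, and the 3 that kept Nphs1 called 17.8%, 38.6% and 34.7%.

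**Figure D2:**
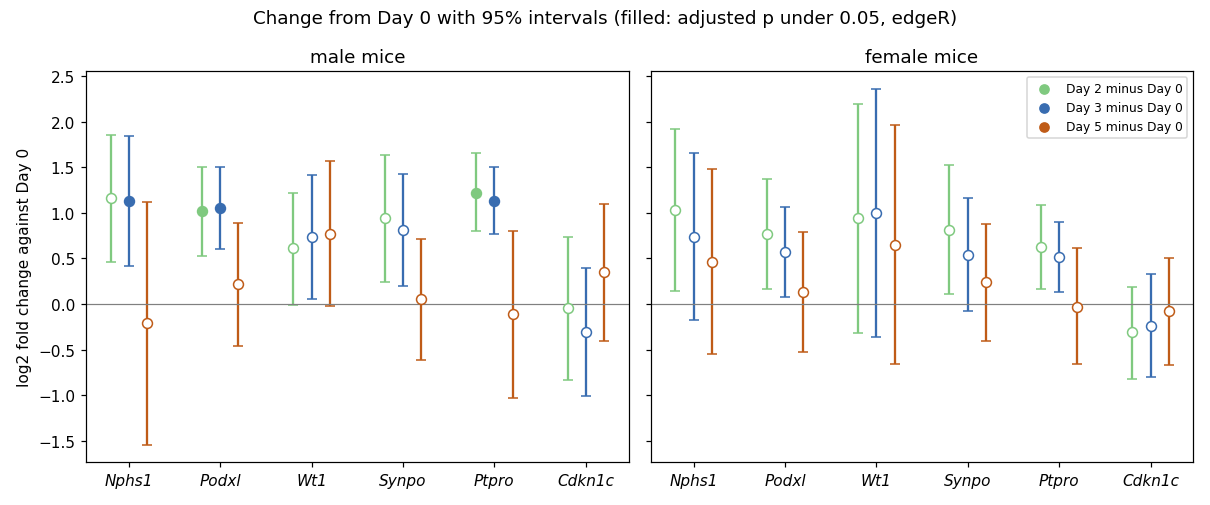
Log2 fold change against Day 0 (y axis) of each podocyte gene (x axis) in males (left) and females (right) at Day 2, Day 3 and Day 5; bars are 95% intervals, filled points have an adjusted p under 0.05. The 5 filled points are all in males, and the widest intervals belong to Nphs1 in Day 5 males and Wt1 in females.

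The share of counts on long genes moved with these results. Over the 32 libraries, log2 CPM correlated with that share at r = 0.67 for Nphs1, 0.74 for Podxl, 0.75 for Wt1, 0.68 for Synpo and 0.56 for Ptpro, and at -0.55 for Cdkn1c, the only short gene of the 6. These r describe libraries that share depth, day and scaling, so they carry no test. Other genes of 4000 bases or more had a median log2 difference of 0.21 at Day 2 and 0.24 at Day 3 in males, and shorter genes -0.2 and -0.25. The 5 long podocyte genes stood above the long-gene median in both comparisons, and Cdkn1c lay above that of short genes at Day 2 and below it at Day 3.

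With a per-library offset for gene length, an alternative chosen after the data were seen, the male differences were smaller. Ptpro stayed called at Day 2 (1.02, adjusted p = 0.0419) and Day 3 (0.88, adjusted p = 0.0112), and Podxl at Day 3 (0.89, adjusted p = 0.0166). Podxl at Day 2 (0.87, adjusted p = 0.0594) and Nphs1 at Day 3 (0.91, adjusted p = 0.0573) were no longer called. With the offset, 0.692% of all genes were called at Day 2 and 12.3% at Day 3. Without Day 0 male mouse 3, the library under 40%, all 3 were called on both days, where 14% and 38.6% of all genes were: Nphs1 at 0.88 and 0.87, Podxl at 0.83 and 0.88, and Ptpro at 1.11 and 1.04. Cdkn1c then stood at 0.31 and 0.07, neither called.

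**Figure D3:**
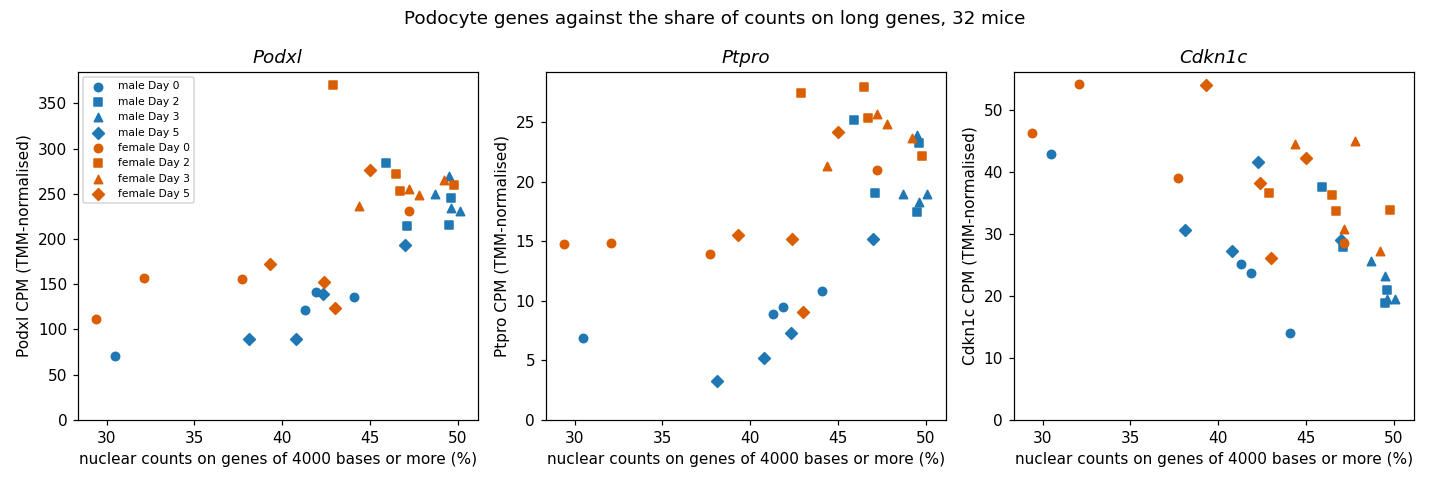
CPM of Podxl, Ptpro and Cdkn1c (y axes) against the share of nuclear counts on genes of 4000 bases or more (x axis, %) in 32 mice, coloured by sex with 1 marker shape per day. The 4 Day 0 libraries under 40% lie at 70.7 to 157 CPM of Podxl, and the only Day 0 female above 40%, at 47.2%, lies at 231.

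In females the estimates at Day 2 and Day 3 were positive for the same 5 genes, and none of the 6 passed the test. The counts were 0 of 6 at Day 2, Day 3 and Day 5 by edgeR, where 1.93%, 5.54% and 0.258% of all genes were called. An unadjusted p under 0.05 was reached by 4189 genes at Day 2, 5247 at Day 3 and 2548 at Day 5. Beside these 0 counts, DESeq2's Wald test called Podxl at Day 2 and Ptpro at Day 3, and none at Day 5, where it called 12.9%, 21.2% and 4.5% of all genes. limma voom with quality weights called all 6 at Day 2, 5 at Day 3 and none at Day 5, where it called 50%, 47.8% and 18.9% of all genes.

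Ptpro in Day 0 females was 13.9, 14.9, 14.8 and 21 CPM, against 27.5, 22.2, 25.4 and 28 at Day 2 and 25.7, 23.7, 24.9 and 21.3 at Day 3. The groups did not overlap, narrowly so at Day 3; over all genes, 15.6% did not overlap at Day 2 and 19.5% at Day 3 in females. The log2 differences were 0.63 (SE 0.212, edgeR adjusted p = 0.106) and 0.52 (SE 0.172, adjusted p = 0.0869).

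Podxl was 156, 157, 112 and 231 CPM in Day 0 females, 370, 260, 253 and 272 at Day 2 and 255, 265, 249 and 237 at Day 3. Day 0 mouse 4 was just below the Day 3 mice, and the groups did not overlap, as was so for the same 15.6% and 19.5% of all genes. The differences were 0.77 (SE 0.273, edgeR adjusted p = 0.118) and 0.57 (SE 0.219, adjusted p = 0.12).

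Nphs1 was 17.4, 14.4, 6.8 and 36.1 CPM at Day 0, 47.1, 34.1, 38.3 and 38.5 at Day 2 and 34.7, 33, 30 and 31.3 at Day 3. Day 0 mouse 4 exceeded all the Day 3 females. Wt1 was 7.03, 5.32, 0.958 and 15.3 CPM at Day 0 and 13 to 17.8 at Day 2 and Day 3, and Synpo 43.5, 47, 43.6 and 98.3 CPM against 82.2 to 153. In both genes only mouse 4 of the Day 0 females reached the later values. The adjusted p of these 3 genes lay between 0.144 and 0.32 (edgeR, Day 2 and Day 3).

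Day 0 female mouse 4 decided the female result. Without it, 5 of the 6 were called at both days: Nphs1 at 1.56 and 1.27, Podxl at 0.98 and 0.78, Wt1 at 1.61 and 1.68, Synpo at 1.19 and 0.91 and Ptpro at 0.77 and 0.66 (adjusted p 0.00188 to 0.0392, edgeR). That fit called 28.3% of all genes at Day 2 and 39.1% at Day 3. Mouse 4 was the only Day 0 female with more than 40% of counts on long genes. With it as the only Day 0 female kept, the 5 differences fell to between -0.13 and 0.3 at Day 2 and between -0.19 and 0.17 at Day 3. These are values only, since a group of 1 mouse is assumed to vary like the other group, and that fit called 0.471% and 0.0522% of all genes. What set this mouse apart was not tested.

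Cdkn1c of females was 39.1, 54.2, 46.4 and 28.6 CPM at Day 0, 36.7, 33.9, 33.7 and 36.4 at Day 2 and 30.9, 27.3, 45.1 and 44.6 at Day 3. The Day 0 range covered the later values except Day 3 mouse 2. The log2 differences were -0.31 (edgeR adjusted p = 0.404) and -0.24 (adjusted p = 0.522).

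Whether the changes differed between the sexes was tested with an interaction term, and none of the 6 genes passed. The male change minus the female change for Ptpro was 0.57 (95% interval 0 to 1.14, edgeR adjusted p = 1) at Day 2 and 0.59 (0.1 to 1.08, adjusted p = 0.598) at Day 3. Across all genes the interaction called 0% at Day 2, 0.0114% at Day 3 and 0.243% at Day 5, with 738, 1252 and 2568 genes at an unadjusted p under 0.05. Other tools called none of the 6 at Day 2 or Day 3, while limma voom called Nphs1 at Day 5, where it called 32.5% of all genes. Without the 4 Day 0 libraries under 40% long genes, the Day 3 values were 1.06 for Nphs1, 0.79 for Podxl and 0.88 for Ptpro. Day 0 females then rest on mouse 4 alone, which is assumed to vary like the other groups, and that fit called 8.85% of all genes and these 3 of the 6.

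Between the sexes on the same day, Cdkn1c at Day 3 was the only call by edgeR. At Day 3, DESeq2's Wald test also called Wt1 and limma voom also called Ptpro, where they called 25.9% and 42.5% of all genes. It was 25.6, 19.6, 23.2 and 19.6 CPM in males and 30.9, 27.3, 45.1 and 44.6 in females, without overlap, as was so for 25.3% of all genes. The male minus female log2 difference was -0.74 (SE 0.178, edgeR adjusted p = 0.0198). At Day 3, 21.3% of genes were called between the sexes, 10.7% were called lower in males and 1.93% met the stricter rule, which Cdkn1c did not.

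The adrenal cortex also expresses Cdkn1c, and its markers differed widely among the Day 3 females. Its 4 markers summed to 413 and 523 FPKM in Day 3 females 3 and 4, the libraries at 45.1 and 44.6 CPM of Cdkn1c, and to 5.12 and 6.02 in mice 1 and 2. Without mice 3 and 4 the difference was -0.41 (adjusted p = 0.112), no longer called, an alternative chosen after the data were seen. In leave-one-out fits it was called in 5 of 8, at -0.86 to -0.63, and was lost without male mouse 2, male mouse 4 or female mouse 3. Without male mouse 3, 4 of the 6 genes were called, and 11.6% of all genes. Day 5 females had 146 to 335 FPKM of the adrenal markers, with a mean Cdkn1c of 40.2 CPM, against 42.1 in Day 0 females. In Day 2 males the highest Cdkn1c, 37.6 CPM, was in mouse 4, at 2.11 FPKM, while mouse 2 had 111 FPKM. At Day 3, 5 of 6 collecting duct markers were also called lower in males than females and 5 of 8 proximal tubule markers higher. Of 16673 genes, 1777 were called lower and 1769 higher. The part of any of these cells was not tested.

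At Day 0, Day 2 and Day 5 no podocyte gene was called between the sexes by edgeR, where 0.449%, 1.47% and 0.276% of genes were. An unadjusted p under 0.05 was reached by 1289, 2485 and 3094 genes. DESeq2's Wald test called Ptpro at Day 0, Nphs1 and Wt1 at Day 2 and none at Day 5, where it called 2.71%, 5.12% and 6.92% of all genes. limma voom called 2, 3 and 4 of the 6, beside 25.2%, 19% and 29.7% of all genes. Ptpro at Day 0 was lower in all 4 males than in any female, with a difference of -0.84 (SE 0.221, edgeR adjusted p = 0.224). At Day 2 the sexes did not overlap for Nphs1 (-0.53, adjusted p = 0.109) or Wt1 (-0.56, adjusted p = 0.0738). At Day 5 they did not overlap for Synpo (-0.58, adjusted p = 0.181). Groups without overlap held 5.9%, 9.16% and 9.87% of all genes on these days.

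At Day 5 none of the 6 was called against Day 0 in either sex, although 19.2% of genes were called in males and 5402 had an unadjusted p under 0.05. DESeq2's Wald test called none of those it gave an adjusted p in either sex, and it gave none for Nphs1 in males; limma voom called Nphs1 and Cdkn1c in males, where it called 54.8% of all genes and DESeq2 28.1%. The male group was split. Nphs1 was 24.5 CPM in mouse 1 and 4.37, 5.41 and 3.91 in mice 2 to 4, and Ptpro was 15.2 against 5.21, 7.26 and 3.24. Podxl was 193, 89.6, 139 and 89 CPM, and Synpo 57.1, 42.6, 41 and 29.9.

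Mouse 1 is the library whose Xist count went against its label, and mice 2 to 4 are those above 75% mitochondrial counts. Without mouse 1, Nphs1 was lower than at Day 0 by the test (-1.27, edgeR adjusted p = 0.0474), and between the sexes Nphs1 (-2.33, adjusted p = 0.00125), Ptpro (-1.43, adjusted p = 0.0184) and Synpo (-0.68, adjusted p = 0.0403) were lower in males. These fits called 26% and 17% of all genes. With mouse 1 as the only Day 5 male, Nphs1 stood at 1.12 and Ptpro at 0.84 against Day 0, values only, since a lone mouse is assumed to vary like the Day 0 group and that fit called 0 of 18506 genes. In mice 2 to 4 Nphs1 rested on 29 to 35 counts and Ptpro on as few as 24.

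Wt1 and Cdkn1c did not share that split. Wt1 was 11.2, 6.48, 14.4 and 7.01 CPM in Day 5 males, and Cdkn1c 29, 27.2, 41.6 and 30.6. Relative to the mean of the other 5 genes, Wt1 stood at -1.34 (SD 0.468, log2) in Day 5 males and -2.14 (SD 0.329) in Day 0 males, and Cdkn1c at 0.78 and 0.34. Mesothelial cells of the kidney's outer lining also express Wt1. In Day 5 males 4 of 5 mesothelial markers were called higher (median log2 change 3.4), as were 8.98% of all genes. The summed markers were 11.4, 59.4, 108 and 28.6 FPKM in mice 1 to 4, against 4 to 10.5 at Day 0. Mouse 3 had both the highest total and the highest Wt1, but mouse 2, with the next highest total, had the lowest Wt1, and mouse 1, with the lowest total, had the next highest Wt1. Their part in the Wt1 level was not tested.

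**Figure D4:**
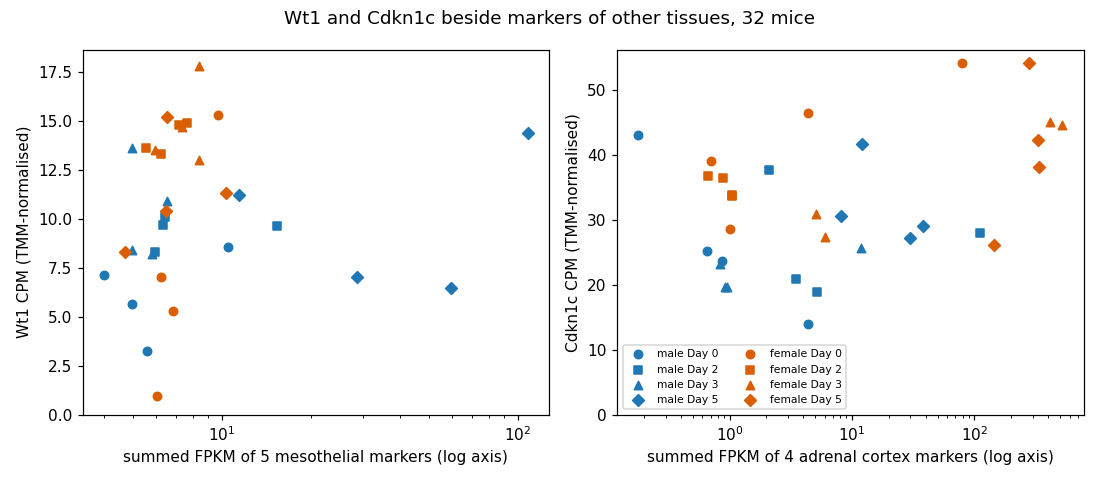
Wt1 CPM against the summed FPKM of 5 mesothelial markers (left) and Cdkn1c CPM against that of 4 adrenal cortex markers (right), both x axes on a log scale, in 32 mice coloured by sex with 1 marker shape per day. Male Day 5 mouse 3 lies at 108 FPKM and 14.4 CPM on the left, and Day 3 females 3 and 4 at 413 and 523 FPKM on the right.

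In Day 5 females Nphs1 was 23.9, 12.2, 30.3 and 37.7 CPM, Podxl 153, 124, 172 and 276, and Ptpro 15.2, 9.09, 15.5 and 24.2. Mouse 2, the female above 75% mitochondrial counts, was the lowest for all 3, and mouse 4 the highest. The log2 differences from Day 0 were 0.46, 0.13 and -0.03.

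Ranked by mean CPM, Day 2 females were the highest group for Nphs1 (39.5), Podxl (289), Synpo (106) and Ptpro (25.8), Day 3 females for Wt1 (14.8) and Day 0 females for Cdkn1c (42.1). The lowest groups were Day 5 males for Nphs1 (9.56), Synpo (42.7) and Ptpro (7.73), Day 0 males for Podxl (117) and Wt1 (6.15), and Day 3 males for Cdkn1c (22). Neighbouring groups in each of these orders overlapped. Some of these places depended on the scaling. On CPM of total counts Day 5 males were the lowest group for all 6 genes, and on total counts without mitochondrial genes Day 0 males were. Cdkn1c was then highest in Day 3 females (48.7) and in Day 5 females (55.7), while the highest groups of the other 5 genes stayed the same under both.

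Nphs1, Podxl and Ptpro also varied together among mice of a group. The deviations from the group mean of log2 CPM correlated at r = 0.9 for Nphs1 and Podxl, 0.84 for Podxl and Ptpro and 0.83 for Nphs1 and Ptpro over 32 mice. Cdkn1c correlated with the other 5 at -0.35 to -0.01. Without the Day 5 mice the 3 pairs stood at 0.94, 0.79 and 0.73, Nphs1 and Wt1 moved from 0.69 to 0.91, and Cdkn1c lay at -0.53 to -0.37. Mice of a group share the scaling and differ in the share of long genes, and no test was made.

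Over the 32 libraries and 13987 other expressed genes, the gene whose log2 CPM was most like that of Nphs1 was Tnfrsf21 (r = 0.955), followed by Atp6v0a4 and Pklr. Podxl was most like Prrc2b (0.93), Nphs1 and Cds2, and Ptpro most like Flrt1 (0.924), Nphs1 and Podxl. Wt1 was most like Zfp516 (0.925), Kansl3 and Piezo1, and Synpo most like Rere (0.943), Prrc2b and Pdxk. Among these neighbours of the 5 long genes, only Pklr, at 3236 bases, was shorter than 4000. Cdkn1c was most like Cldn7 (0.868), Siva1 and Bax, which were 1576 to 2420 bases long.

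The cells that expressed the 50 further podocyte genes below were not determined in these whole-kidney libraries. Of the 50, 48 were tested in males. At Day 2, 10 were called higher and none lower, at Day 3 15 higher and 1 lower, and at Day 5 11 higher and 1 lower. Over all genes, 1.81%, 11.4% and 8.98% were called higher on these days. Their median log2 differences were 0.42, 0.44 and 0.15, against 0.03, 0.02 and 0.04 over all genes. The 40 of 4000 bases or more had medians of 0.52 and 0.49 at Day 2 and Day 3, against 0.21 and 0.24 for other genes of that length, and the 8 shorter ones had 0.19 and -0.02. In females, 2 were called higher at Day 2, 2 higher and 1 lower at Day 3 and none at Day 5, with medians of 0.43, 0.35 and 0.23. Of all genes, 0.774% were called higher in females at Day 2 and 1.26% at Day 3. Of the 10 and 15 called higher in males, 9 and 14 were 4000 bases or longer.

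The libraries that stood apart moved these counts. Without Day 0 male mouse 3, 11 were called higher at Day 2, where 6.33% of all genes were, and 19 at Day 3, where 19.5% were. With the length offset, 1 was called higher at Day 2 and 10 at Day 3, beside 0.343% and 4.83% of all genes. Without male Day 2 mouse 2, the one above 50 FPKM of adrenal markers, none was called at Day 2, where 0.0494% of all genes were called higher. Without Day 5 male mouse 1, 13 were called higher and 3 lower at Day 5, beside 11.4% and 14.5% of all genes. In females without Day 0 mouse 4, 16 were called higher and 1 lower at Day 2 and 21 higher and 3 lower at Day 3, where 13.4% and 18.7% of all genes were called higher. Without the female libraries above 50 FPKM of adrenal markers, 1 was called higher at Day 2 and none at Day 3, beside 0.0946% and 0% of all genes. Without the Day 5 libraries above 75% mitochondrial counts, none was called in either sex, with medians of 0.38 in males, from mouse 1 alone, and 0.2 in females, where 0% and 0.26% of all genes were called.

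Of 12 further slit diaphragm genes, 10 were tested in males, and 2 were called higher at Day 2 and 4 at Day 3. Of all genes, 1.81% and 11.4% were called higher on these days. On each day 6 of the 10 had positive differences, with medians of 0.07 and 0.32. Fat1, a giant protocadherin of the slit, rose by the test in males (1.52 at Day 2, 1.53 at Day 3) and in females (2.37 and 2.1, edgeR adjusted p = 0.00684 and 0.0465). Its group means were 31.7, 91.7 and 92.4 CPM in males and 24.5, 132 and 108 in females at Day 0, Day 2 and Day 3. Fat1 is also expressed by tubule cells. Tjp1, for the junction protein ZO-1, rose at Day 3 in males (1.15, adjusted p = 0.0039).

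Of 11 basement membrane and adhesion genes, 4 were called higher in males on each of Day 2, Day 3 and Day 5. Of all genes, 1.81%, 11.4% and 8.98% were called higher on these days. Lama5 and Lamb2 encode chains of the laminin of the glomerular basement membrane. Lama5 rose in males at Day 2 (1.17, edgeR adjusted p = 0.0319), Day 3 (1.14) and Day 5 (1.55), and Lamb2 at Day 2 (1.09), Day 3 (1.07) and Day 5 (1.79, adjusted p = 0.00915). The Day 5 values rest on mouse 1, with Xist counts against its label, and mice 2 to 4, above 75% mitochondrial counts. Agrn, for the proteoglycan agrin, rose in males at Day 2 (1.12, edgeR adjusted p = 0.0462) and Day 3 (1.06). It also rose in females at Day 2 (1.56, adjusted p = 0.0298) and Day 3 (1.27), where 0.774% and 1.26% of all genes were called higher.

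Of 8 genes for secreted factors and receptors, 2 were called higher in males at Day 2 and 3 at Day 3, beside 1.81% and 11.4% of all genes. Pla2r1, the phospholipase A2 receptor, was at 4.07 to 4.61 CPM in Day 0 males. It rose to 8.63 to 11.2 at Day 2 and 10.6 to 13.4 at Day 3 (1.21 and 1.42, edgeR adjusted p = 0.0241 and 0.0024). Which kidney cells gave the Pla2r1 counts was not determined. Pla2r1 was not called in females at Day 2 or Day 3, at 2.11 to 8.7 CPM at Day 0 and 4.67 to 6.95 at Day 2 and Day 3.

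Of 12 cytoskeletal genes, 1 was called higher in males at Day 2, where 1.81% of all genes were. At Day 3, 2 were called higher and 1 lower, where 11.4% of all genes were called higher and 13.1% lower. Counts this small in 12 genes lie near those shares. Arhgdia, for an inhibitor of small GTPases, fell at Day 3 in males (-0.72, edgeR adjusted p = 0.019). Rhpn1, for the protein rhophilin, fell in Day 5 males (-2, adjusted p = 0.0179) and in Day 3 females (-1.27, adjusted p = 0.0465), and Inf2, for a formin, rose in Day 5 males (1.68). Of all genes, 10.2% were called lower in Day 5 males and 4.28% in Day 3 females. Of 7 transcription factors, 1 was called higher in males at Day 2 and 2 at Day 3, beside 1.81% and 11.4% of all genes.

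Other glomerular cells gave a partly like picture in males. Of 8 glomerular endothelial markers, 3 were called higher at Day 2 and at Day 3 and 4 at Day 5, where 1.81%, 11.4% and 8.98% of all genes were. All 8 were at least 4203 bases long, so the shift of long genes moved with these counts, and its part was not tested. Their medians were 0.78, 0.62 and 0.81, and their summed level was 38.2 to 53.2 FPKM at Day 0, 66.7 to 81.6 at Day 2 and 68.3 to 69.5 at Day 3. In females none was called higher, and 1 was called lower at Day 3. Of 5 mesangial markers, none was called in males at Day 2 and 2 were higher at Day 3 and at Day 5 (medians 0.51, 0.31 and 0.66). In females none of the 5 was called, with medians of -0.32, -0.62 and 0.15. No listed marker of either cell type was at 0 in all mice of a group.

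Markers of adipocytes and of other kidney cells were also counted in males. At Day 2, 217 of 16051 genes were called lower. At Day 3, 13.1% of all genes were called lower and 11.4% higher. Of 4 adipocyte markers, none was called at Day 2 and 3 were called lower at Day 3 (median -1.83), and their summed level was 242 to 1330 FPKM at Day 0, 179 to 252 at Day 2 and 128 to 177 at Day 3. Of 4 distal convoluted tubule markers, 1 was called lower at Day 2 and 3 at Day 3 (median -1.48), with sums of 114 to 230 FPKM at Day 0, 42.8 to 86.2 at Day 2 and 25.9 to 56.5 at Day 3. Of 4 tubule injury markers, none was called at Day 2 and 2 were called higher at Day 3 (medians 3.09 and 2.51). At Day 3, 1 of 3 smooth muscle and 1 of 6 collecting duct markers were called lower and 1 of 8 proximal tubule markers higher, with none of these called at Day 2. Counts of 1 in lists this small lie near those shares. No leukocyte marker of 5 and no thick limb marker of 4 was called on either day. The part of these cells in the podocyte gene levels was not tested.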

How the data were processed

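Total kidney RNA of 32 mice was sequenced by the authors, who aligned the reads and counted them per gene; HTSeq and DESeq2 are named in the submitters' processing notes, without versions. The deposited values were whole-number counts and FPKM per gene; the deposited FPKM equal counts per kilobase of exon over 1 effective library size per mouse. Strand setting and annotation release are not given in the sources used here. The labels name GRCm39 and the methods GRCm38, but 53499 of 54409 matched genes (98.3%), and all 6 podocyte genes, have GENCODE M21 (GRCm38) coordinates.

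Counts were tested with edgeR 4.0.16 (R 4.3.3): TMM scaling, filterByExpr, robust quasi-likelihood fits over the groups compared, and Benjamini-Hochberg adjustment over all genes tested (call: adjusted p under 0.05). The 13 comparisons were 6 of a day with Day 0 within a sex, 4 between the sexes and 3 interactions. Log2 CPM used a prior count of 2, SE is the log2 fold change over the root of F, and scripts were tested on simulated counts. limma 3.58.1 and DESeq2 1.42.0 served as alternatives. Library totals were 16502107 to 35961325, and the tests rest on the variation among the 4 mice of each group.

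The 6 genes, the lists and the comparisons were chosen with earlier results of these data known. Named beyond the 6 were, in each comparison with Day 0 up to 3 listed podocyte genes with the largest called rise and fall, and the 3 genes most correlated with each of the 6. Some listed genes and a promoter motif are not reported here. Lists of mesangial, smooth muscle, tubule, leukocyte, adipocyte and tubule injury markers were also totalled.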

Additional observations from a re-analysis of the deposited data

Results flagged for a closer look

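Of 48 sets of 4 mice (6 genes in 8 groups), 8 had a mouse far from the other 3, its gap to the nearest taking more of the range than Dixon's 95% critical value. Chance gives about 1 in 20.

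Nphs1 in male Day 5 mouse 1 was 24.5 CPM, against 3.91 to 5.41 in the other 3 males of that day. This library carried 4153 Xist counts against its male label and had 42.5% mitochondrial counts, below the 78.9% to 79.8% of the others. What part these had was not tested.

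Day 0 female mouse 4 was high for Synpo, at 98.3 CPM against 43.5 to 47, and for Ptpro, at 21 against 13.9 to 14.9. It had 47.2% of its counts on long genes, against 29.4% to 37.7% in the other Day 0 females, and its part was not tested.

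Day 2 female mouse 1 was high for Podxl, at 370 CPM against 253 to 272, and for Synpo, at 153 against 85.3 to 94.7. Synpo was also high in Day 3 female mouse 1, at 100 CPM against 82.2 to 84.1, and in Day 5 female mouse 4, at 89.6 against 59.7 to 64.2. Ptpro in Day 3 male mouse 3 was 23.9 CPM against 18.3 to 19.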

How the results depend on the processing

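Of the 6 podocyte genes, edgeR called 2 in males at Day 2, 3 at Day 3 and Cdkn1c between the sexes at Day 3. Requiring an absolute log2 fold change over 1.5 as well left 0 in each. DESeq2's Wald test called 4 in males at Day 2 and 4 at Day 3 (18.3% and 35.1% of all genes), 1 in females at Day 2 and at Day 3, and 1, 2 and 2 between the sexes at Day 0, Day 2 and Day 3. limma voom with quality weights called 5, 5 and 2 in males at Day 2, Day 3 and Day 5 (46.4%, 57.1% and 54.8% of all genes), 6 and 5 in females at Day 2 and Day 3, 2, 3, 2 and 4 between the sexes on the 4 days in order, and 1 in the Day 5 interaction. One fit over all 8 groups called 3 in males at Day 2 and 3 at Day 3 (Synpo gained on both days, Nphs1 lost at Day 3), 2 in females at Day 2 and, between the sexes, 0 at Day 3 and 1 at Day 5. The length offset called 1 in males at Day 2 and 2 between the sexes at Day 3. Without libraries over 50 FPKM of adrenal markers, 0 were called in males at Day 2 and 0 between the sexes at Day 3, and comparisons with Day 5 females could not be fitted. Without libraries under 40% long genes, the Day 3 interaction called 3, with 1 Day 0 female assumed to vary like the other groups. These 3 last alternatives and the one on mitochondrial counts were chosen after the data were seen. The cause of these shifts was not tested. Over all alternatives with a p, the adjusted p of the called genes ran, in males at Day 2, from 7.38e-05 to 0.147 for Podxl and from 8.9e-07 to 0.108 for Ptpro, and, in males at Day 3, from 0.000343 to 0.0993 for Nphs1, from 3.35e-06 to 0.0593 for Podxl and from 1.97e-08 to 0.0576 for Ptpro. For Cdkn1c between the sexes at Day 3 they ran from 0.000862 to 0.276. The 5 male calls kept their direction under all 18 alternatives.

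Replicate numbers were taken only to name mice. Correlations of same-numbered mice ran from -0.42 to 0.48, and no comparison had them over 0.1 for all 4 pairs. Between the sexes at Day 0, mice 1, 3 and 4 stood at 0.27, 0.45 and 0.48. On that day mouse 3 of each sex had the lowest share of long genes (30.5% and 29.4%). Mouse 4 of each sex had the highest (44.1% and 47.2%). Whether same-numbered mice shared a batch was not tested. With a replicate block, 0 were called in males at Day 2 and 0 at Day 3, where 0.0312% and 0.566% of all genes were, with log2 fold changes of 1.22 and 1.14 for Ptpro and 1.05 and 1.09 for Podxl, and Cdkn1c kept its call between the sexes. Leaving out 1 mouse at a time gave 0 to 4 called in males at Day 2, 1 to 5 at Day 3 and 0 to 1 at Day 5, 0 to 5 in females at Day 2 and at Day 3 and 0 at Day 5, and 0 to 4 and 0 to 3 between the sexes at Day 3 and Day 5.

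Reversed signs occurred only among differences that were not called. Cdkn1c in males turned to 0.02 under the block, to 0.21 and 0.02 with the length offset at Day 2 and Day 3, and to 0.31 and 0.07 without libraries under 40%. In females it turned to 0.01 and 0.05 with the offset at Day 3 and Day 5, to 0.28, 0.35 and 0.31 without libraries under 40% at Day 2, Day 3 and Day 5, and to 0.07 without the one over 75% mitochondrial. In males at Day 5, Synpo turned to -0.02 in the fit over 8 groups and -0.09 with the offset, Podxl to -0.26 with voom, and Ptpro to 0.06 without libraries under 40%. Without libraries over 75% mitochondrial, Nphs1 turned to 1.12 and Ptpro to 0.84 in males and Ptpro to 0.16 in females, where voom gave 0.17. Without libraries under 40%, female Wt1 turned to -0.13, -0.07 and -0.32 at Day 2, Day 3 and Day 5, Nphs1 to -0.18 and -0.55 and Synpo to -0.19 and -0.45 at Day 3 and Day 5, and Podxl to -0.34 at Day 5. Between the sexes, Wt1 turned to 0.19 (block) and 0.05 (voom) at Day 0 and 0.03 (mitochondrial) at Day 5, and Podxl to 0 (8 groups) at Day 3 and 0.02 (mitochondrial) at Day 5. In interactions, voom gave Nphs1 -0.22 at Day 2 and Podxl -0.44 and Wt1 -0.5 at Day 5. Without libraries under 40%, Wt1 was 0.53 and 0.61 at Day 2 and Day 3, and Nphs1 0.35, Synpo 0.47 and Ptpro 0.42 at Day 5. Without those over 75% mitochondrial, Nphs1 was 0.35, Synpo 0.12 and Ptpro 0.61 at Day 5, and Cdkn1c was 0.11 at Day 3 without those over 50 FPKM of adrenal markers. Leaving out 1 mouse at a time also turned signs of log2 differences. In males at Day 2, Cdkn1c ran from -0.28 to 0.31. In males at Day 3, Cdkn1c ran from -0.52 to 0.07. In males at Day 5, Nphs1 ran from -1.27 to 0.04, Podxl -0.02 to 0.35, Synpo -0.1 to 0.37 and Ptpro -0.66 to 0.13. In females at Day 5, Podxl ran from -0.13 to 0.34, Ptpro -0.28 to 0.16 and Cdkn1c -0.25 to 0.07. Between the sexes at Day 0, Wt1 ran from -0.57 to 0.47. Between the sexes at Day 3, Podxl ran from -0.08 to 0.01. Between the sexes at Day 5, Wt1 ran from -0.34 to 0.1. In the Day 2 interaction, Nphs1 ran from -0.43 to 0.36, Wt1 -1.03 to 0 and Synpo -0.27 to 0.44. In the Day 3 interaction, Nphs1 ran from -0.17 to 0.63, Wt1 -0.97 to 0.07, Synpo -0.13 to 0.58 and Cdkn1c -0.29 to 0.27. In the Day 5 interaction, Podxl ran from -0.19 to 0.33, Wt1 -0.59 to 0.48, Synpo -0.59 to 0.13 and Ptpro -0.67 to 0.15. Counts under 40 in Day 5 males 2 to 4 limit Nphs1.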
